A study of Ovis aries with 8 samples.

Results

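Oxidative phosphorylation was followed here through 81 genes measured in the liver of 8 lambs, out of 27729 genes in the deposited table. Of these, 68 are nuclear genes, taken by symbol as subunits and assembly factors of the respiratory complexes (the NDUF, SDH, UQCR, COX and ATP5 names). The other 13 are the protein-coding genes that the table places on the mitochondrial (MT) chromosome. CYC1 and CYCS were also sought, but no row carries either symbol. The livers came from preweaning Assaf lambs, a dairy sheep breed, in a study that asked how a restricted supply of milk replacer changes gene expression in the liver. The 4 RES lambs were allowed 120 mL of milk replacer per kg of live weight and were 33 to 36 days old at slaughter. The 4 ADL lambs drank ad libitum, at 192 mL per kg, and were also 33 to 36 days old. Each library came from 1 lamb and was made from polyadenylated RNA. No other treatment or genotype is named for either group. Slaughter weight averaged 7.9 ± 0.548 kg in RES and 11.6 ± 0.890 kg in ADL (SD, n = 4 each).

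Oxidative phosphorylation is the process by which mitochondria turn the energy of food into ATP. Complexes I and II pass electrons from NADH and succinate to ubiquinone, complex III hands them to cytochrome c, complex IV gives them to oxygen, and the proton gradient built on the way drives ATP synthase, complex V. Most subunits are encoded in the nucleus and imported, while a small core of complexes I, III, IV and V is encoded by the mitochondrial genome, so that both genomes supply parts of the same machines. In the liver this machinery carries the energy cost of gluconeogenesis, urea synthesis and the oxidation of fatty acids.

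Expression is given as TPM, a unit that scales reads to gene length and to the library total, so levels can be compared between genes. The libraries held 15134039 to 17879918 reads on genes. A list of hepatocyte markers summed to 86270 to 156833 TPM in RES and to 90968.5 to 123643 TPM in ADL. Lamb ADL 3 stood apart across the table, with the lowest value of the 8 lambs in 42.6% of all genes tested, and ADL 1 had the highest value in 36.1%. Comparisons are therefore given with all 8 lambs and without ADL 3, a lamb left out because its library stood apart and not for anything its label says.

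No member passed the test between the diets with all 8 lambs. Of 67 nuclear members with a mean of at least 1 TPM, 0 were called by limma at an adjusted p below 0.05, and 0 of the 13 MT members were called. Over all 13812 genes tested, 0.00724% were called. At an unadjusted p below 0.05 the counts were 0 of 67 and 0 of 13, against 9.7% of all genes. The median log2 fold change, RES over ADL, was -0.05 for nuclear members, -0.06 for MT members and -0.04 for all genes tested. In the nuclear set 29 genes lay above 0 and 38 below, over a range of -0.80 to 0.23, and the smallest adjusted p was 0.567. Every member tested had overlapping RES and ADL values, against 2.8% of all genes in which RES lay wholly above ADL and 1.68% in which it lay wholly below. The authors' deposited table, a DESeq2 comparison, likewise had 0 of 67 nuclear and 0 of 13 MT members below 0.05, against 2.3% of the genes with an adjusted p there. These p-values measure the spread between lambs, and in a whole-liver sample fewer cells of a type and less RNA per cell cannot be told apart.

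The MT members varied more from lamb to lamb than genes at large, while the nuclear members did not. The median fold of the highest over the lowest lamb was 2.83 for MT members and 1.85 for nuclear members. Over all genes tested it was 1.91. In both sets, as over all genes, the wider spread lay within the ADL group. ADL 1 had the highest value of the 8 lambs in 42 of 67 nuclear members (62.7%) and in 12 of 13 MT members (92.3%). ADL 3 had the lowest value in 37 of 67 nuclear members (55.2%) and in 10 of 13 MT members (76.9%). Both extremes thus lay in the ADL group, at opposite ends. RES 4 was the lowest lamb in 18 of 67 nuclear members (26.9%) and in the other 3 MT members, against 10.0% of all genes. The median deviation of the MT members from the mean of the 8 lambs was 0.83 on the log2 scale in ADL 1 and -0.55 in ADL 3, and that of the nuclear members was 0.44 in ADL 1 and -0.30 in ADL 3. The median SD of the log2 level of an MT member was 0.20 within RES and 0.62 within ADL, and that of a nuclear member was 0.21 within RES and 0.36 within ADL, beside 0.20 within RES and 0.35 within ADL over all genes tested. The SD was larger in ADL in 53 of 67 nuclear members (79.1%) and in 12 of 13 MT members, beside 75.4% of all genes. Without ADL 3 the MT value in ADL was still 0.53, and without ADL 1 it was 0.33. ATP8 was the single MT member whose SD was not larger in ADL.

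**Figure D1:**
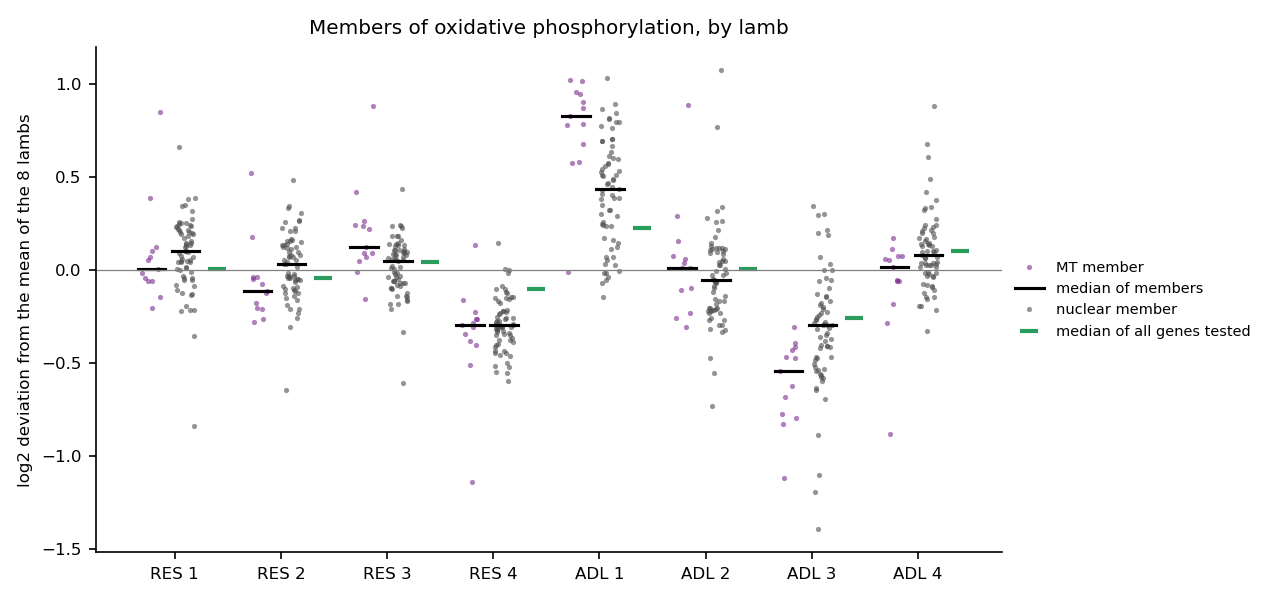
Log2 deviation of each member from its own mean over the 8 lambs (vertical axis), by lamb, with RES left and ADL right. Purple points are the 13 MT members, grey points the 67 nuclear members tested, black bars their medians and green bars the median of all genes tested. ADL 1 sits highest and ADL 3 lowest for the MT members, with medians of 0.83 and -0.55.

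The 13 MT genes were far more abundant than the nuclear genes whose products they join. Their median level was 4655 TPM, against 78.4 TPM for the nuclear members, and the highest nuclear member, ATP5B, averaged 644 TPM. The MT genes took 7.27%, 6.40%, 7.83% and 5.14% of all TPM in RES 1 to RES 4, and 11.4%, 7.54%, 4.39% and 6.37% in ADL 1 to ADL 4. The ADL lambs held both the highest and the lowest share, so the RES values fell inside their range. The means were 6.66 ± 1.17% in RES and 7.42 ± 2.94% in ADL (SD, n = 4 each). Nuclear members took 0.672 ± 0.0785% in RES and 0.721 ± 0.150% in ADL.

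The ratio of MT to nuclear members within each lamb differed little between diets. The summed TPM of the MT genes was 9.94, 9.10, 11.2 and 9.24 times that of the nuclear members in RES 1 to RES 4, and 12.3, 11.3, 7.74 and 8.78 times in ADL 1 to ADL 4. ADL again held the highest and the lowest lamb. The group means were 9.87 ± 0.971 in RES and 10.0 ± 2.14 in ADL (SD, n = 4 each), a difference of -0.00391 on the log2 scale beside a pooled SD of 0.242. A sum over chosen genes was given no test. Without ADL 3 the difference was -0.12, and without ADL 1 it was 0.10. With the MT gene ATP8 left out it was -0.105. Each was smaller than the pooled SD.

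**Figure D2:**
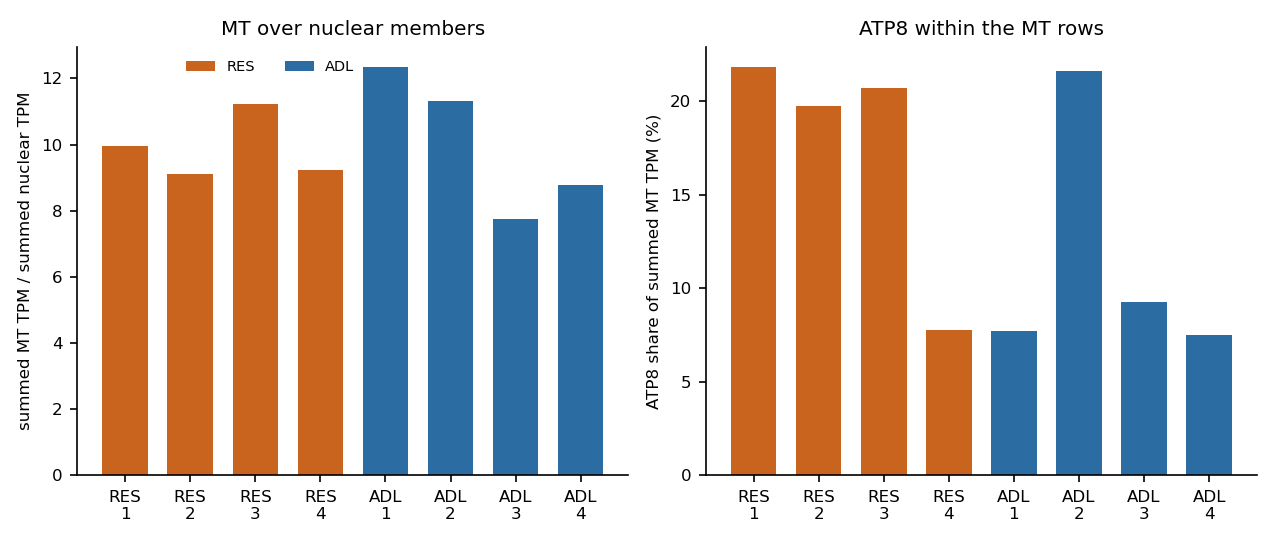
Left, summed TPM of the 13 MT members over summed TPM of the 68 nuclear members in each lamb. Right, the share of the summed MT TPM taken by ATP8, in percent. Bars are single lambs, RES left and ADL right. The ratio runs from 7.74 to 12.3, both in ADL, and the ATP8 share falls into high values (RES 1 to RES 3 and ADL 2) and low values (the other 4 lambs).

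The MT genes of complex I encode the membrane arm of the enzyme. ND4L, one of its small subunits (MT, 9885 to 10181, plus strand, in the table's coordinates), had 4661, 4043, 4356 and 3950 TPM in RES, against 9868, 5409, 3486 and 5035 TPM in ADL. Without ADL 3 each RES value would lie below each ADL value, but ADL 3 was the lowest of all 8. The log2 fold change, at -0.38 (SE 0.30), gave the smallest limma adjusted p of the MT members, 0.719. ND4, a proton-pumping subunit, averaged 5549 ± 469 TPM in RES and 6968 ± 2676 TPM in ADL (SD, n = 4 each), and ND3 averaged 1815 ± 429 TPM in RES and 1577 ± 814 TPM in ADL. ND3 was the one MT gene of complex I above 0, at a log2 fold change of 0.29 (adjusted p = 0.817). ND1, ND2, ND5 and ND6 lay between -0.24 and -0.02. Reads of neighbouring MT genes may be shared where the genes overlap, by 7 nt for ND4L and ND4 and by 17 nt for ND5 and ND6, which lie on opposite strands. The sources used here do not say whether the counting used strand.

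CYTB, the MT subunit of complex III that carries its haem b groups (MT, 14159 to 15298), was the most abundant member, at 12112 TPM over the 8 lambs. It had 10292, 9356, 11742 and 9178 TPM in RES, against 23066, 13899, 6545 and 12818 TPM in ADL. ADL 1 stood far above the other lambs and ADL 3 below all of them, so the groups overlapped (log2 fold change -0.34, SE 0.35, adjusted p = 0.789).

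COX1, COX2 and COX3 form the catalytic core of complex IV. COX1, which binds oxygen, averaged 10693 ± 1356 TPM in RES and 13262 ± 5373 TPM in ADL (SD, n = 4 each), with a log2 fold change of -0.24 (adjusted p = 0.814). COX2, the subunit that accepts electrons from cytochrome c, averaged 2443 ± 268 TPM in RES and 2507 ± 775 TPM in ADL, and COX3 averaged 5596 ± 765 TPM in RES and 5879 ± 2216 TPM in ADL. The log2 fold change was 0.00316 for COX2 and -0.01 for COX3. COX2 had the narrowest range of TPM among the MT members, with a highest lamb 1.98 times the lowest. Its share of the summed MT TPM without ATP8 was not steady, running from 3.44% in ADL 1 to 5.63% in RES 4.

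ATP6 and ATP8 encode subunits of the membrane part of ATP synthase and are read from one mammalian transcript in overlapping frames. ATP8 (MT, 7775 to 7975, a gene of 201 nt that overlaps ATP6 by 40 nt) had 15844, 12619, 16226 and 3986 TPM in RES, against 8738, 16296, 4052 and 4769 TPM in ADL. The lambs fell into a high set and a low set that cut across the diets, with RES 4 among the low lambs and ADL 2 among the high ones. The log2 fold change of 0.56 had an SE of 0.55 (adjusted p = 0.778). ATP6 did not follow: it averaged 4580 ± 720 TPM in RES and 4729 ± 1523 TPM in ADL (SD, n = 4 each; log2 fold change -0.01). The ratio of ATP8 to ATP6 was 3.20, 3.00, 3.01 and 1.05 in RES 1 to RES 4, and 1.28, 3.40, 1.23 and 1.19 in ADL 1 to ADL 4. ATP8 took 7.49% to 9.23% of the summed MT TPM in the 4 lambs with the low ratio and 19.7% to 21.8% in the others. Between 7361 and 27763 reads were counted on ATP8 per lamb, so counting error is small beside this gap. What sets the 2 levels was not tested. With ATP8 left out, the ratio of MT to nuclear TPM was 7.77, 7.31, 8.90 and 8.52 in RES and 11.4, 8.86, 7.03 and 8.12 in ADL.

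**Figure D3:**
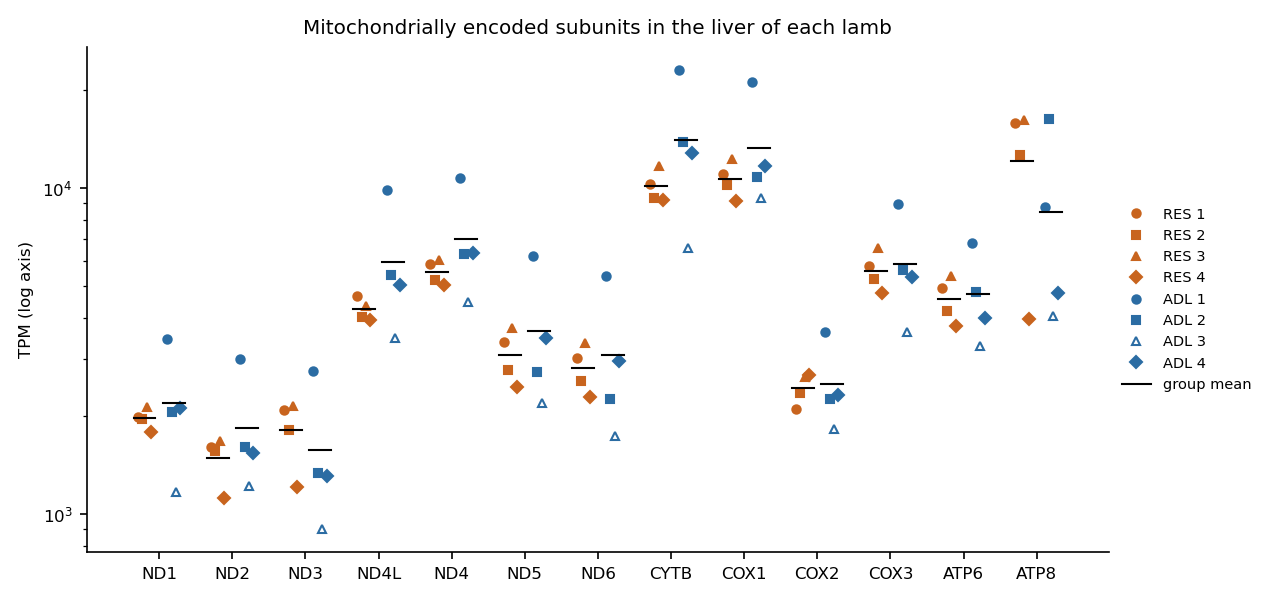
TPM of the 13 MT protein genes on a log axis, with RES left and ADL right for each gene. Marks are lambs, ADL 3 is drawn open, and black bars are group means. ADL 1 is the highest lamb for 12 genes and ADL 3 the lowest for 10, and ATP8 splits RES 1 to RES 3 and ADL 2 from the other 4 lambs.

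Complex I held 36 of the nuclear members, 7 of them core subunits with counterparts in bacteria and 29 accessory ones. Of these, 18 lay above 0 and 18 below, with a median log2 fold change of 0.000407. Among the core subunits NDUFV1, which binds NADH, and NDUFS1, an iron-sulphur subunit, had log2 fold changes of 0.11 and -0.14. Of the accessory subunits, NDUFA10 averaged 82.0 ± 11.2 TPM in RES and 70.8 ± 8.25 TPM in ADL (log2 fold change 0.21, adjusted p = 0.719), and NDUFS4, a subunit needed for stable assembly, averaged 112 ± 14.2 TPM in RES and 97.2 ± 17.9 TPM in ADL (SD, n = 4 each; 0.21, adjusted p = 0.741). NDUFA12 averaged 63.5 ± 1.95 TPM in RES and 87.5 ± 33.1 TPM in ADL, with the lowest fold change of the complex at -0.38 (adjusted p = 0.693). The 4 RES lambs were close together and the spread was in ADL, where values ran from 48.8 to 128 TPM.

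Complex II, succinate dehydrogenase, links the respiratory chain to the TCA cycle and is wholly encoded in the nucleus. SDHA, the flavoprotein that oxidises succinate, averaged 171 ± 24.6 TPM in RES and 153 ± 22.1 TPM in ADL, and SDHB, the iron-sulphur subunit, 33.1 ± 1.70 TPM in RES and 31.7 ± 7.48 TPM in ADL. SDHC, a membrane anchor, averaged 179 ± 28.8 TPM in RES and 153 ± 28.7 TPM in ADL (SD, n = 4 each). Their log2 fold changes were 0.17, 0.09 and 0.23, with adjusted p of 0.799, 0.910 and 0.747. SDHD, the other anchor, had 90.9, 90.0, 90.6 and 65.6 TPM in RES, against 167, 99.4, 65.3 and 105 TPM in ADL. RES 1 to RES 3 were nearly equal and RES 4 stood below them, close to ADL 3 (log2 fold change -0.30, SE 0.27, adjusted p = 0.751). A pair of further loci carry the same description as SDHD, so the split of reads among the 3 is uncertain.

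Only 1 nuclear subunit of complex III and 2 of complex IV carry a symbol that the choice of members reaches. UQCRH, the hinge protein that helps cytochrome c1 meet cytochrome c, averaged 130 ± 12.8 TPM in RES and 155 ± 48.9 TPM in ADL (log2 fold change -0.21, adjusted p = 0.813). NDUFA4, now counted with complex IV, averaged 188 ± 33.6 TPM in RES and 176 ± 17.2 TPM in ADL (SD, n = 4 each; 0.08, adjusted p = 0.918). COX5A, a matrix-side subunit of complex IV (chromosome 18, 32649966 to 32660590, 7 exons), had 41.9, 43.5, 38.0 and 38.7 TPM in RES, against 89.7, 57.8, 36.7 and 55.1 TPM in ADL. ADL 3 lay just below the RES lambs and the other ADL lambs above them. Its log2 fold change was -0.49 (SE 0.24, adjusted p = 0.567). The intronless LOC101117799 carries the description of the same subunit, so reads could be split between them. NDUFA4L2, a homologue of NDUFA4 known as a hypoxia-induced gene in other mammals, had 0.109 to 0.769 TPM in RES and 0.120 to 0.451 TPM in ADL, too low to be tested.

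A further 30 loci are described in the table as subunits under LOC symbols and are no members. They are not all separate subunits: LOC101117799 and LOC780442, each of 1 exon, are described as the subunits that COX5A and SDHD encode. They were listed after the table had been seen and are given as a description. Of 25 tested, 5 lay above 0 and 20 below, with a median log2 fold change of -0.21, and 0 were called by limma with all 8 lambs (2 at an unadjusted p below 0.05). LOC101119721, described as subunit 10 of the cytochrome b-c1 complex (complex III), had 71.8, 72.6, 60.9 and 61.1 TPM in RES, against 131, 105, 68.1 and 104 TPM in ADL. All ADL lambs but ADL 3 lay above the RES lambs (log2 fold change -0.58, SE 0.21, limma adjusted p = 0.420). In the authors' deposited table its adjusted p was 0.0473. LOC101121285, described as COX7A1, the isoform of heart and muscle, had 19.7, 125, 43.6 and 103 TPM in RES, against 132, 87.7, 120 and 69.4 TPM in ADL. It varied widely within RES alone, and the groups overlapped (log2 fold change -0.77, adjusted p = 0.688). The rows described as COX4I2, COX6A2, COX6B2 and COX7B2, isoforms of other tissues, and a locus described as ATP synthase subunit f had means below 1 TPM and were not tested.

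Cytochrome c, which carries electrons from complex III to complex IV and in the cytosol helps to trigger apoptosis, varied most between lambs among the tested members and the subunits named by description. LOC106990092 (chromosome 4, 70673317 to 70678782, 3 exons), the locus described as cytochrome c, had 10.9, 12.3, 13.6 and 11.2 TPM in RES, against 46.9, 75.7, 6.35 and 61.7 TPM in ADL. The RES lambs were close together, 3 ADL lambs were far above them and ADL 3 was below them. With limma this came to -1.50 on the log2 scale (SE 0.64) at an adjusted p of 0.496, while in the authors' deposited table the adjusted p stood at 0.0178. The table holds 18 other loci described as cytochrome c pseudogenes or cytochrome c-like, and of the 19 in all 14 were tested. All 14 had a log2 fold change below 0, from -1.58 to -0.94, with 0 called (limma adjusted p of 0.453 to 0.641). The summed level of the 19 loci was 103, 107, 125 and 112 TPM in RES, against 425, 766, 56.8 and 553 TPM in ADL, with the ADL lambs in the same order as at LOC106990092. The highest of the 19 loci was LOC101107359, described as a pseudogene, at 93.2 TPM over the 8 lambs beside 29.8 TPM for LOC106990092. Such loci can take reads from one another, so they are not separate observations. Cytochrome c itself has no CYCS row by symbol in the table and is thus no member.

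ATP synthase held 14 nuclear members, 4 of the catalytic F1 head and 10 of the membrane rotor and stalks. With all 8 lambs 4 lay above 0 and 10 below (median log2 fold change -0.12), and the 4 F1 subunits were all below 0. ATP5B, the catalytic beta subunit (chromosome 3, 162509140 to 162514818, 10 exons), had 603, 585, 568 and 496 TPM in RES, against 1016, 676, 469 and 741 TPM in ADL. ADL 1 was the highest and ADL 3 the lowest of the 8 lambs (log2 fold change -0.32, SE 0.23, adjusted p = 0.710). ATP5G2, one of 3 genes for the c subunit of the rotor, averaged 191 ± 10.2 TPM in RES and 171 ± 14.6 TPM in ADL (SD, n = 4 each; 0.16, adjusted p = 0.752). ATP5G1 and ATP5G3, which encode the same mature protein, had log2 fold changes of -0.01 and -0.27. Another locus is described as the subunit that ATP5I encodes, so its value of 0.09 is uncertain.

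Assembly factors of complex I, which build the enzyme without staying in it, and the ATP5S family made up 10 members. NDUFAF6 (chromosome 9, 81766187 to 81810277, 9 exons) had 9.54, 15.5, 11.3 and 17.5 TPM in RES, against 36.3, 37.3, 6.31 and 32.6 TPM in ADL. The lambs ADL 1, ADL 2 and ADL 4 were above all RES lambs, and ADL 3 was below them all. The log2 fold change of -0.80 was the lowest of the nuclear members (SE 0.51, adjusted p = 0.670). NDUFAF4 had 7.87, 7.39, 8.57 and 5.87 TPM in RES, against 13.5, 15.1, 3.49 and 14.1 TPM in ADL, the same arrangement of lambs (-0.43, SE 0.40, adjusted p = 0.764). NDUFAF7, a methyltransferase, lay at 0.11 (adjusted p = 0.851). The other assembly factors lay between -0.37 and 0.11.

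Without ADL 3 several members were called lower in RES. ADL 3 was chosen from these same expression values, often the lowest of the 8 lambs, so leaving it out raises the ADL mean and narrows its spread. The adjusted p of this fit depend on that choice and are given as a description. Of 67 nuclear members 5 were called lower and 0 higher (limma adjusted p below 0.05). That share, 7.46%, was near the 7.59% of all 13815 genes called lower in the same fit (2.42% were called higher, 10.0% in all), so it is no result about the members as a list. At an unadjusted p below 0.05 were 18 of 67 nuclear members (26.9%) and 1 of 13 MT members, beside 29.6% of all genes. On the log2 scale NDUFAF6 fell by 1.40 (SE 0.21, adjusted p = 0.0108), NDUFAF4 by 0.90 (SE 0.14, adjusted p = 0.0131) and ATP5SL, a paralogue of ATP5S known in other mammals as a complex I assembly factor, by 0.67 (SE 0.12, adjusted p = 0.0182). NDUFS3, a core subunit of complex I, fell by 0.65 (SE 0.15, adjusted p = 0.0350), and COX5A by 0.70 (SE 0.18, adjusted p = 0.0468). RES lay wholly below the 3 ADL lambs in 16 of 67 nuclear members (23.9%) and in 3 of 13 MT members (ND4L, CYTB and ND4), beside 21.7% of all genes. The reverse was seen in 0 members, beside 6.16% of all genes. Of the MT members 0 were called, and their median log2 fold change was -0.33, beside -0.16 for nuclear members and -0.13 for all genes. That fit keeps ADL 1, the highest lamb in most MT members. With both ADL 1 and ADL 3 left out the medians were -0.01 for MT members and -0.03 for nuclear members. The nuclear members of complex I had a median of -0.08, which turned to 0.06 under median-of-ratios scaling, and the F1 head one of -0.41, which was -0.27 under that scaling.

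**Figure D4:**
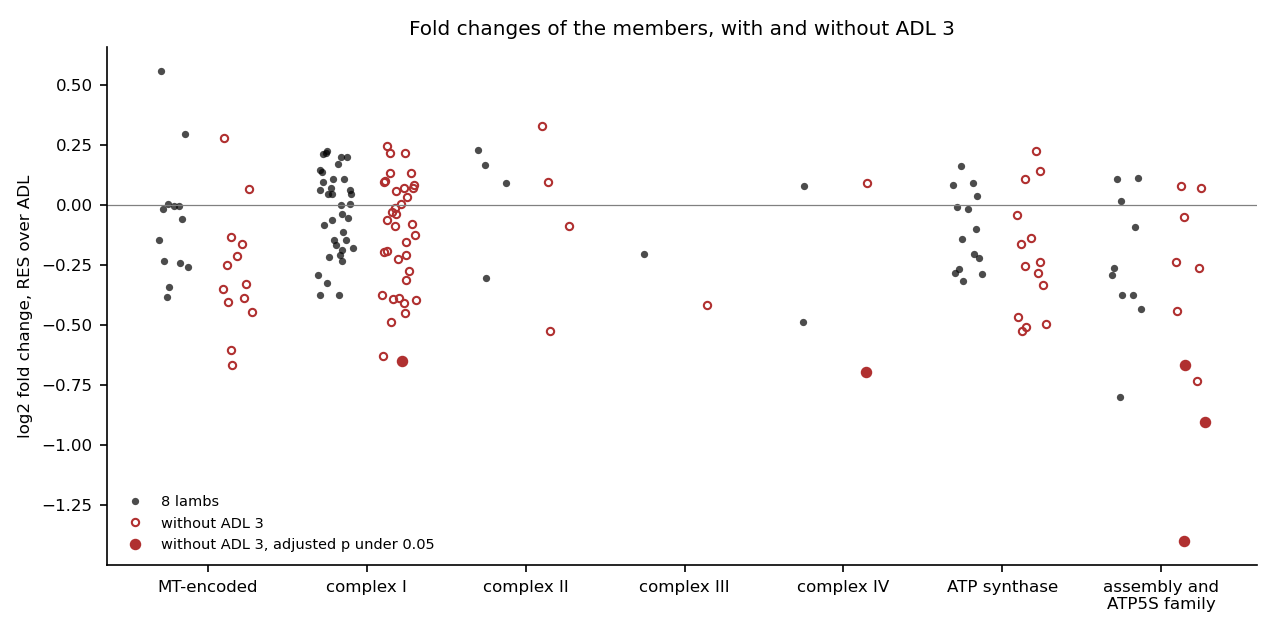
Log2 fold change, RES over ADL, of the 13 MT and 67 nuclear members tested, by complex. Black points are the fit of 8 lambs, open red points the fit without ADL 3, and filled red points the 5 members with an adjusted p below 0.05 in that fit. The lowest point is NDUFAF6, at -0.80 with 8 lambs and -1.40 without ADL 3.

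The scale of the libraries bears on these calls. Scaling by medians of ratios moved the median of all genes without ADL 3 to 0.01, and the split over all genes to 616 higher and 534 lower, against 334 higher and 1048 lower on TPM. Under it NDUFAF6, NDUFAF4, ATP5SL and NDUFS3 were still called lower, with adjusted p of 0.0238, 0.0196, 0.0293 and 0.0377. These 4 of 67 (5.97%) stood beside 3.87% of all genes called lower, with 0 members higher beside 4.46% (8.33% of all genes in all). COX5A was not called (log2 fold change -0.55, adjusted p = 0.0616). The median of the nuclear members was then -0.02 and that of the MT members -0.18. With sample quality weights 7 of 67 nuclear members (10.4%) were called lower, the 5 above with NDUFA8 and NDUFA12, and 0 higher, beside 8.98% of all genes called lower and 5.28% higher. These weights are estimated from the same expression values and were lowest for ADL 3, at 0.160. The weighted fit is therefore not independent of the fit without ADL 3. The direction of the medians rested on single lambs of both groups. Without ADL 1 the nuclear median was 0.05 and the MT median 0.19, with 10 of 13 MT genes above 0. The median of all genes also turned positive, at 0.03, with 7437 of 13765 above 0. Without RES 4 the nuclear median was also 0.05, with 38 of 67 members above 0. The MT median was -0.04 and that of all genes -0.02. Among the subunits named by description, a list made after the table had been seen, 4 of 25 (16%) were called lower without ADL 3 under both scalings, beside 7.59% of all genes on TPM and 3.87% under medians of ratios: LOC106990092, LOC101119721, LOC101117799 and LOC101110066, the last described as subunit 7A2 of complex IV. LOC101117799 may share reads with COX5A, and loci described as one subunit are not separate observations. The share is therefore no result about the list. LOC106990092 fell by 2.29 (SE 0.17, adjusted p = 0.000822). All 14 cytochrome c loci were called lower in both of these fits, from -2.43 to -1.57 on TPM, and 8 of 14 were below 0.05 in the authors' deposited table.

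**Figure D5:**
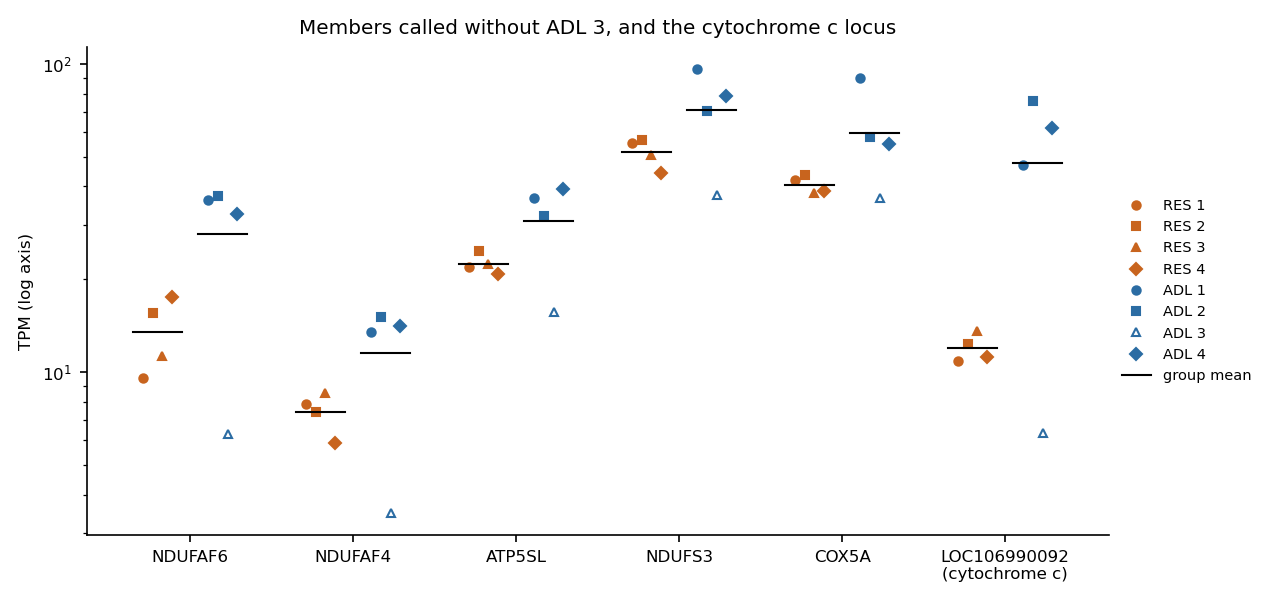
TPM on a log axis of the 5 members called lower without ADL 3 and of LOC106990092, described as cytochrome c. Marks are lambs, RES left and ADL right, with ADL 3 open and black bars for group means over 4 lambs. For each gene the 4 RES lambs lie below ADL 1, ADL 2 and ADL 4, and ADL 3 lies below the RES lambs.

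Lists of genes that serve the same machinery without being members were read in the same fits. With all 8 lambs limma called 0 genes of any of the lists, whose medians ran from -0.15 (inner membrane) to -0.02 (mitochondrial DNA). Without ADL 3 the medians ran from -0.29 (regulators and inner membrane) to -0.16 (mitochondrial DNA), beside -0.13 for all genes and the 7.59% of them called lower. Without ADL 3, of the 28 assembly factors outside the NDUFAF series 5 were called lower, among them HIGD1A, a small protein associated with complex IV (log2 fold change -1.23, adjusted p = 0.00305), SDHAF1 and SDHAF2. HIGD1A had 9.73, 9.45, 10.4 and 8.51 TPM in RES, against 21.5, 20.8, 6.63 and 26.9 TPM in ADL. For replication and transcription of mitochondrial DNA 2 of 22 were called lower, SUCLA2 and TFAM, the factor that packages the mitochondrial genome and starts its transcription (-0.52, adjusted p = 0.0322). TFAM had 21.1, 24.2, 23.6 and 20.4 TPM in RES, against 31.4, 30.5, 16.8 and 34.6 TPM in ADL. For processing and stability of mitochondrial RNA 3 of 25 were called lower, TBRG4, GRSF1 and ELAC2.

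Of 15 transcriptional regulators 2 were called lower without ADL 3, in a fit that called 7.59% of all genes lower. ESRRA, a nuclear receptor that activates many of the nuclear members, had 22.1, 21.3, 18.8 and 26.4 TPM in RES, against 47.9, 45.2, 18.0 and 38.5 TPM in ADL (-0.98, adjusted p = 0.0110), and CREB1 was the other. Of 16 genes of the inner membrane 4 were called lower, among them SLC25A3, the phosphate carrier that feeds ATP synthase, SLC25A5, an ADP/ATP carrier, and CHCHD4, of the import pathway of the intermembrane space. SLC25A3 had 207, 206, 223 and 189 TPM in RES, against 446, 371, 160 and 385 TPM in ADL (-0.95, adjusted p = 0.00768). AIFM1, which works with CHCHD4, lay the other way, at 0.49 with 8 lambs (adjusted p = 0.421) and at 0.51 without ADL 3 (adjusted p = 0.0991). It passed under median-of-ratios scaling without ADL 3, at 0.65 (adjusted p = 0.0257), and with quality weights, at 0.56 (adjusted p = 0.0280). Of 13 genes of coenzyme Q synthesis 0 were called, and PDSS1, which had the smallest p of the list with 8 lambs (adjusted p = 0.694), had an adjusted p of 0.110 without ADL 3. Under median-of-ratios scaling without ADL 3, the counts higher and lower were 1 and 1 for assembly factors, 0 and 0 for mitochondrial DNA, 1 and 2 for mitochondrial RNA, 0 and 1 for regulators, 1 and 2 for the inner membrane and 0 and 0 for coenzyme Q. Over all genes that fit called 4.46% higher and 3.87% lower. With lists this short, such counts are no result about the lists. Under that scaling TFAM was not called (limma adjusted p = 0.0698). Nor were SDHAF1 (0.0501), SDHAF2 (0.0580), SUCLA2 (0.0501), ELAC2 (0.130), CREB1 (0.0703) and CHCHD4 (0.0587). HIGD1A, TBRG4, GRSF1, ESRRA, SLC25A3 and SLC25A5 were still called lower.

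Other cell types were read through their markers, and their part in these results was not tested. Cholangiocyte markers (7 of 7 found) summed to 25.5 to 36.4 TPM in RES and 35.6 to 66.2 TPM in ADL, and macrophage markers (8 of 9) to 1270 to 1499 TPM in RES and 1065 to 1323 TPM in ADL. Endothelial markers (8 of 8) ran from 326 to 456 TPM in RES and from 318 to 538 TPM in ADL, stellate and fibroblast markers (9 of 9) from 339 to 515 TPM in RES and from 433 to 625 TPM in ADL, and lymphocyte markers (8 of 8) from 22.8 to 31.5 TPM in RES and from 14.9 to 23.1 TPM in ADL. Muscle markers (8 of 8) summed to 8.70 to 16.1 TPM in RES and 7.61 to 13.6 TPM in ADL, with 3 of them at 0 in all lambs. Red blood cell markers (3 of 7 found) were near 0, at most 0.886 TPM in RES and 1.35 TPM in ADL. Of all these markers limma called 0 with 8 lambs. Without ADL 3 it called 2 of 10 hepatocyte markers and 1 of 8 endothelial markers lower, and 1 of 9 stellate and fibroblast markers higher. Over all genes that fit called 7.59% lower and 2.42% higher. Under median-of-ratios scaling without ADL 3, 2 hepatocyte markers were called lower, 0 endothelial markers, and 1 stellate and fibroblast marker higher. There 3.87% of all genes were called lower and 4.46% higher. With lists this short, such counts are no result about the cell types.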

How the data were processed

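Liver RNA of 4 RES and 4 ADL lambs was sequenced, and groups, allowances, weights and ages were taken from the labels. Expression values are the authors' deposited TPM. For each gene the authors' deposited table also holds, per the file headers, a mean normalized signal, log2 fold changes with a standard error, a test score, and p-values before and after adjustment. The submitters' processing notes name bcl2fastq 1.8.4 and DESeq2 1.12.4. The sources used here name no aligner, read counter or build. Coordinates are therefore the table's own. TPM times gene length gave whole reads in 100% of values (within 0.001), which set the depth. Because TPM in a lamb add to one total, abundant genes such as the MT genes lower the rest.

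Limma 3.58.1 (R 4.3.3) was run on log2(TPM + 0.5) for genes averaging at least 1 TPM, with a trended prior, two-sided, Benjamini-Hochberg adjusted over all genes tested, threshold 0.05. Fold changes are on that scale, RES over ADL. Members were chosen by symbol or chromosome. The members, the lists (189 of 217 names matched) and the rule for named genes were chosen with earlier results of these data known. That rule took all MT genes, complex II, the genes with the smallest p and the highest level per complex, members that passed, tissue isoforms and the leading genes of each list. A few members outside it (such as NDUFV1, NDUFS1 and NDUFAF7) are named for their roles, chosen after their values were seen. One gene that the rule names is not reported here; it stays in the tests and counts of members. Alternatives were other pseudocounts, filters and scalings, voom on the recovered reads, quality weights, age or lamb number as a term, and leaving out each lamb.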

Additional observations from a re-analysis of the deposited data

Results flagged for a closer look

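In 5 of 78 groups of 4 values, drawn from the named members and the MT and nuclear totals, 1 lamb stood far from the other 3, and chance alone gives about 1 in 20. RES 4 was the outlying low lamb for SDHD (65.6 TPM) and ATP5A1, the alpha subunit of ATP synthase (255 TPM). ADL 3 was the outlying low lamb for NDUFAF6 (6.31 TPM) and NDUFAF4 (3.49 TPM), and the outlying high one for NDUFA4L2 (0.451 TPM), a gene at the limit of detection.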

How the results depend on the processing

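With all 8 lambs 1 gene was called over the whole table, and 0 of the members. The count over all genes was 0 without a filter on low values, 0 under median-of-ratios scaling, 0 by voom and 0 with lamb number as a replicate block. It was 1969 with sample quality weights (ADL 3 weighed least, at 0.160), 0 to 1382 on leaving out each lamb in turn, 1150 under median-of-ratios scaling without ADL 3, and 419 without ADL 1 and ADL 3. Nuclear members called were 7 with quality weights, 0 to 5 on leaving out each lamb, 4 under median-of-ratios scaling without ADL 3 and 2 without ADL 1 and ADL 3. The high counts (1382 and 5) were those without ADL 3, and leaving out RES 4 called 49 genes and 0 members. The cause was not tested. MT members called stayed at 0, and the medians and the MT to nuclear ratio moved by less than 1 SD, in each alternative run. Rescaling TPM without the MT genes gives no MT value. Lamb numbers did not pair the lambs (correlations of same-numbered lambs from -0.0439 to 0.159), and lamb 4 alone correlated best with its own number. Each group of 4 limits what can be detected, and low genes such as NDUFA1 rest on as few as 10 reads in a lamb.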
